A study of Capra hircus with 2 samples.

Results

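The miR-30 family is a set of related microRNAs (miRNAs), which are short RNAs that lower the output of mRNAs by pairing with them. The members were taken by name, as every conserved goat miRNA on the study's list called miR-30a to miR-30f, with or without an arm suffix. This rule gave 7 of the 346 listed miRNAs, namely miR-30a-5p, miR-30b-5p, miR-30b-3p, miR-30c, miR-30d, miR-30e-5p and miR-30f. The suffix 5p or 3p names the arm of the hairpin precursor from which the mature miRNA is cut. Levels were not used to choose the members.

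A miRNA recognises most of its targets through the seed, a short stretch near its 5′ end, and miRNAs with the same seed are grouped as a family because they can act on overlapping targets. The miR-30 family is abundant in many mammalian tissues, is lowered when epithelial cells turn mesenchymal, and has known targets in autophagy and in the differentiation of fat cells. In mice, an excess of miR-30b in the mammary gland impairs milk production and delays the regression of the gland after weaning.

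Small RNA was sequenced from the mammary gland of Xinong Saanen dairy goats, 2.5 years old, in 1 library of the dry period, when the gland is not milked, and 1 library of peak lactation. Each library pooled material of 3 goats, so no spread between goats was measured, no test between stages was possible, and a batch or library difference cannot be told apart from the stage. Per the methods the dry period glands were taken 320 days after lambing and the lactating ones 75 days after, whereas the labels swap these days, so the stages were taken from the titles and state labels. No treatment or genotype separated the groups.

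Clean reads numbered 14851375 in the dry library and 15712891 in the lactating one. Conserved miRNAs took 61.1% of clean reads in the dry period and 14.4% in peak lactation, with let-7 and miR-98 the larger part of them in both libraries. Levels are therefore given per 1000000 clean reads (RPM) and, where stated, per conserved miRNA read. A count of 3 reads, the smallest amount taken as detectable, was 0.20 RPM in the dry period and 0.19 RPM in peak lactation. Intervals in square brackets are at 95% unless stated. They cover counting error only and compare these libraries, not the stages, and reads copied by PCR without molecular identifiers are not independent molecules.

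The mature sequences below, 5′ to 3′ as the study listed them, show how little separates the members. Capitals mark the seed, bases 2 to 8 counted from 1 at the 5′ end.
miR-30a-5p: uGUAAACAuccucgacuggaagc
miR-30d: uGUAAACAuccccgacuggaagcu
miR-30e-5p: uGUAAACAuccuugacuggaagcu
miR-30b-5p: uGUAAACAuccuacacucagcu
miR-30c: uGUAAACAuccuacacucucagcu
miR-30f: uGUAAACAcccuacacucucagcu
miR-30b-3p: cUGGGAGGuggauguuuacuu

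The 6 members without the 3p suffix began with the same 8 bases, so they shared the seed GUAAACA, and no other listed miRNA had it. The seed of miR-30b-3p, the strand from the opposite arm of the miR-30b hairpin, was UGGGAGG and was listed for no other miRNA. Past the seed the 6 fell into subgroups by sequence. miR-30a-5p differed from miR-30d by U12C alone and from miR-30e-5p by C13U alone over their shared 23 bases. miR-30c differed from miR-30f by U9C alone, and miR-30b-5p matched miR-30c for its first 18 bases. In the goat RefSeq annotation (assembly ARS1.2), the 6 family genes lay as 3 neighbouring pairs with no other record between them. MIR30B and MIR30D lay within a long noncoding RNA, MIR30E and MIR30C lay within NFYC, a gene for a subunit of a transcription factor complex, and MIR30A and MIR30F lay together outside any other record. The subgroups by sequence therefore did not follow the pairs of neighbouring genes.

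All 7 members were detected in both libraries, and the family was led by miR-30a-5p and miR-30d. miR-30a-5p had 4082 RPM in the dry period [4049, 4114] and 2274 RPM in peak lactation [2251, 2298], from 60619 and 35736 reads. It ranked 17 of the 346 listed miRNAs by reads in the dry period and 14 in peak lactation. miR-30d had 1100 RPM [1083, 1117] and 678 RPM [666, 691], and ranked 39 and then 29. The leading pair stood more than an order of magnitude apart from every other member in peak lactation.

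**Figure D1:**
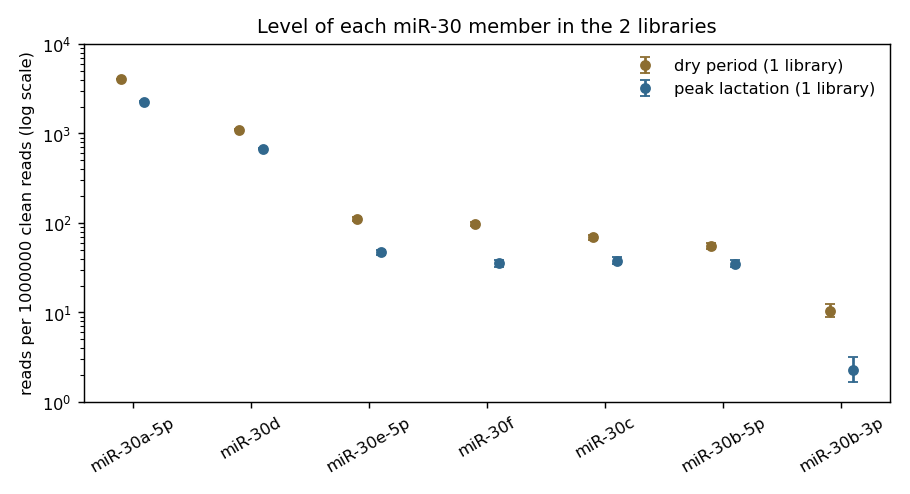
Level of each member in reads per 1000000 clean reads (vertical axis, log scale) in the dry period library and the peak lactation library. Points are the single library of each stage and bars are 95% Wilson intervals for counting error. Every member was lower per clean read in peak lactation, and miR-30a-5p, at 4082 and 2274, was the highest in both. Of 257 conserved miRNAs with at least 1 RPM in either library, only 10 (3.89%) were higher in peak lactation.

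The other 5p members formed a low tier. miR-30e-5p had 111 RPM in the dry period [106, 117] and 46.8 RPM in peak lactation [43.6, 50.3]. miR-30f had 97.0 RPM [92.1, 102] and 35.3 RPM [32.5, 38.4]. miR-30c had 69.4 RPM [65.2, 73.7] and 38.1 RPM [35.1, 41.2]. In the dry period the order was miR-30e-5p, miR-30f, miR-30c and miR-30b-5p, with no overlap of neighbouring intervals. miR-30b-5p had 55.3 RPM [51.7, 59.3] and 35.1 RPM [32.3, 38.2], so in peak lactation miR-30c, miR-30f and miR-30b-5p had overlapping intervals and no order among them could be read. miR-30b-3p was the rarest, with 10.5 RPM [8.98, 12.3] from 156 reads and 2.29 RPM [1.66, 3.17] from 36 reads.

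With any 3′ end counted, the make-up of the family was nearly the same in both libraries, and this does not depend on what the reads are divided by. miR-30a-5p gave 73.9% of family reads in the dry period [73.6, 74.2] and 73.1% in peak lactation [72.7, 73.5]. miR-30d rose from 19.9% [19.6, 20.2] to 21.8% [21.4, 22.2] of family reads. Together with miR-30e-5p, the subgroup of miR-30a-5p held 95.8% and 96.4%. The 0.190% of miR-30b-3p became 0.0737%. miR-30e-5p went from 2.01% [1.92, 2.11] to 1.51% [1.40, 1.62], and miR-30f from 1.76% [1.67, 1.85] to 1.14% [1.05, 1.23]. miR-30c, at 1.26% and 1.22%, had overlapping intervals. The share of miR-30a-5p also fell, and its intervals did not overlap. With whole listed sequences only, its share fell further, from 63.1% in the dry period to 55.1% in peak lactation.

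The family sum was 5524 RPM in the dry period and 3110 RPM in peak lactation, 1.78-fold lower, a log2 fold change (peak lactation over dry period) of -0.83 [-0.85, -0.81]. The size of this fall was small beside that of most miRNAs. Of 257 conserved miRNAs with at least 1 RPM in either library, 181 (70.4%) were lower by more than 1 log2 unit, against 3 of 7 members, miR-30b-3p, miR-30e-5p and miR-30f. The median log2 fold change was -1.44 over the 257 and -0.87 over the members. Among 137 miRNAs outside the family with at least 100 reads in each library, the median was -1.30, the middle of the range ran from -1.99 to -0.86 (quartiles), and 24.8% stood above the family sum. These are descriptions of a pair of libraries, with no estimate of chance.

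**Figure D2:**
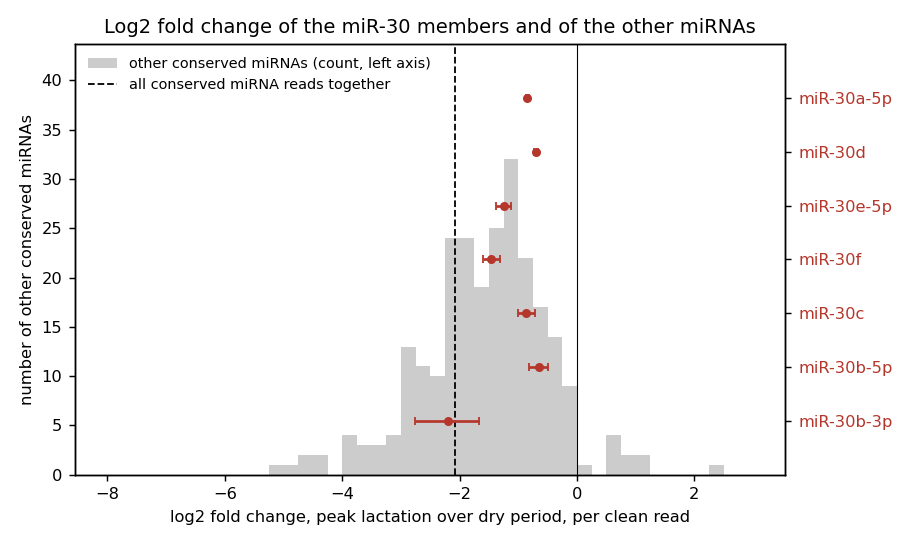
Log2 fold change per clean read, peak lactation over dry period (horizontal axis), of the other conserved miRNAs with at least 1 RPM in either library (grey bars, number of miRNAs, left axis) and of the 7 miR-30 members (red points with 95% counting intervals, names on the right). The dashed line marks all conserved miRNA reads together, at -2.08, and members to the right of it held a larger part of conserved miRNA reads in peak lactation.

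The direction depended on the denominator. As a share of conserved miRNA reads, the family rose from 0.903% [0.897, 0.910] to 2.16% [2.14, 2.18], a log2 difference of 1.26. On this scale 93 of the 257 miRNAs (36.2%) were higher by more than 1 log2 unit, against 4 of 7 members, miR-30a-5p, miR-30b-5p, miR-30c and miR-30d. The median was 0.64 over the 257 and 1.22 over the members. With let-7 and miR-98 left out of the denominator, the family share rose from 3.79% [3.76, 3.82] to 4.68% [4.64, 4.72]. A fall per clean read and a rise per conserved miRNA read are the same counts seen against different totals, and no value in the libraries fixes which total stayed constant in the gland. Fewer cells holding a miRNA and less of it per cell cannot be told apart in these bulk libraries.

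Members differed in how far they fell, by amounts that do not depend on the denominator. These amounts depend on which 3′ ends are counted, most for miR-30a-5p and miR-30b-3p. The log2 fold changes per clean read were -0.66 [-0.81, -0.50] for miR-30b-5p, -0.70 [-0.73, -0.66] for miR-30d, -0.84 [-0.86, -0.82] for miR-30a-5p and -0.87 [-1.01, -0.72] for miR-30c. miR-30e-5p fell further, at -1.25 [-1.37, -1.12], as did miR-30f, at -1.46 [-1.60, -1.32]. miR-30b-3p was at -2.20 [-2.76, -1.67], close to the -2.08 of all conserved miRNA reads together. By rank from the highest log2 fold change of the 257, miR-30b-5p was at 41, miR-30d at 46, miR-30a-5p at 56, miR-30c at 58, miR-30e-5p at 107, miR-30f at 131 and miR-30b-3p at 198.

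All 21 pairs of members were compared by the difference of their log2 fold changes, with intervals widened to the 99.8% level to allow for the number of pairs. In 14 pairs the interval left out 0. The sequence neighbours miR-30c and miR-30f, which differ by U9C just past the seed, differed by 0.59 [0.28, 0.91], with miR-30c the less lowered. miR-30a-5p was less lowered than its C13U neighbour miR-30e-5p by 0.40 [0.20, 0.60]. miR-30d was less lowered than its U12C neighbour miR-30a-5p by 0.15 [0.085, 0.21]. miR-30e-5p and miR-30f, the strongest fallers among the 5p members, differed by 0.21 [-0.080, 0.51], an interval that holds 0. miR-30a-5p and miR-30c, from different sequence subgroups, differed by 0.022 [-0.21, 0.25].

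The comparisons with miR-30a-5p changed when only whole listed sequences were counted, since its listed sequence ends in GC and those of the other 5p members in GCU. miR-30a-5p then had a log2 fold change of -1.24 and differed from miR-30e-5p by 0.027 [-0.26, 0.31], an interval that holds 0. miR-30d was then less lowered than miR-30a-5p by 0.59 [0.49, 0.68], miR-30a-5p differed from miR-30c by -0.43 [-0.76, -0.11], and its difference from miR-30f was 0.29 [-0.0021, 0.58]. Intervals left out 0 in 9 of the 21 pairs. Every pair with miR-30b-3p now had an interval that held 0. That member then had only 59 and 18 reads and a log2 fold change of -1.79. With reads ending in GCU alone, a like end for the 6 5p members that was chosen after seeing the data, miR-30a-5p was less lowered than miR-30e-5p by 0.51 [0.22, 0.79] and miR-30d less lowered than miR-30a-5p by 0.11 [0.013, 0.20]. The difference of miR-30c from miR-30f was 0.72 [0.29, 1.15] under both of these counts.

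Products of the 3 pairs of neighbouring genes were compared in the same way, within each pair and not between pairs. MIR30B and MIR30D gave 5p products that differed by 0.041 [-0.21, 0.29] in log2 fold change, at the same level. MIR30E and MIR30C gave products that differed by 0.38 [0.082, 0.68], and MIR30A and MIR30F gave products that differed by 0.61 [0.39, 0.84]. With any 3′ end counted, the interval held 0 in 1 of the 3 pairs, MIR30B with MIR30D by their 5p products. With whole listed sequences only, it also held 0 for MIR30A with MIR30F, at 0.29 [-0.0021, 0.58]. With GCU ends alone that difference was 0.77 [0.48, 1.06].

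Both arms of the miR-30b hairpin were listed, and they moved apart. miR-30b-3p made up 16.0% [13.8, 18.4] of the reads of both arms in the dry period and 6.12% [4.45, 8.36] in peak lactation. The 5p arm was less lowered than the 3p arm by 1.54 log2 units [0.70, 2.39] at the 99.8% level, although the arms are cut from the same precursor. The peak lactation value rests on 36 reads of the 3p arm, and with whole listed sequences only the difference was 1.20 [-0.011, 2.41], an interval that holds 0.

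Other families were summed in the same way. miR-26, which restrains cell growth in several tissues, fell by 0.93 on the log2 scale, so that miR-30 stood 0.10 [0.081, 0.13] above it. Its member miR-26a, at -0.73 [-0.75, -0.71], was less lowered than the miR-30 sum, and miR-26b, at -1.18 [-1.21, -1.16], more. miR-29, a regulator of collagen genes, had a log2 fold change of -1.25, and miR-30 stood 0.42 [0.40, 0.44] above it. That sum was carried by miR-29a, at -1.33 [-1.35, -1.32], while miR-29c, at -0.45 [-0.50, -0.41], was less lowered than the miR-30 sum. The family of miR-148 and miR-152 was at -0.28, so miR-30 stood below it, with a difference of -0.55 [-0.57, -0.53]. Among miRNAs outside the family with at least 100 reads in each library, the 3 whose log2 fold change lay nearest to that of the family sum were miR-143 (-0.86), miR-146a (-0.80) and miR-193a-3p (-0.77), over the 2 libraries. Every read counted for miR-146a was a tie with another listed miRNA, so its value is uncertain.

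Markers of the cell types a piece of mammary gland can hold moved as well. Summed markers of epithelium (the miR-200 family and miR-205, 6 of 6 found) went from 2687 to 1342 RPM, a log2 fold change of -1.001. Stroma markers (miR-199 and miR-214, 4 of 4) were at -2.94, smooth muscle and myoepithelium markers (2 of 2) at -1.19, skeletal muscle markers (4 of 4) at -0.91 and endothelium markers (2 of 2) at -0.66. Markers within a list differed. Epithelium markers ran from -1.99 (miR-429) to -0.09 (miR-141), and the smooth muscle markers miR-143 and miR-145 were at -0.86 and -2.76. In the dry period miR-1, at -0.90, gave 106563 of the 107546 skeletal muscle reads. The other skeletal muscle markers miR-206, miR-133a and miR-133b were at -2.60, -1.33 and -1.89. Likewise miR-199a-3p, at -2.96, gave 147964 of the 151545 stroma reads in the dry period. The other stroma markers miR-199a-5p, miR-199b and miR-214 were at -2.25, -2.50 and -2.45. Immune markers (6 of 8) were at -0.10, but miR-146b gave 19310 of their 21438 reads in the dry period and 20046 of 21112 in peak lactation. The other 5 immune markers, all below 0, summed to -1.08 [-1.19, -0.97]. Among them, the 205 and 125 reads of miR-146a were ties also counted for miR-146b. The markers not found were miR-142-3p and miR-142-5p, looked for by these names. The study's list held a miR-142 without suffix, not in the sum, with 5461 and 1854 reads and a log2 fold change of -1.64. The red blood cell markers (3 of 3) went from 110 to 190 RPM, at 0.79. No marker that was found stood at 0 in either library. The log2 fold change of the miR-30 sum, -0.83, lay between those of the summed skeletal muscle markers, mostly miR-1, and the summed endothelium markers. The part of cell make-up in the miR-30 values was not tested.

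The reads of each member also vary at their ends, which the rule for members left free. Most 5p members were read most often at 24 nt. miR-30d had 51.6% of its reads at that length in the dry period and 52.9% in peak lactation, and miR-30f had 65.4% and 62.2%. miR-30b-5p, whose listed sequence is 2 bases shorter, had 79.0% and 83.3% at 22 nt. miR-30a-5p was the only 5p member whose commonest length changed, from 23 nt in the dry period (38.5%) to 24 nt in peak lactation (37.1%). Its reads did not become longer on average, with a mean of 23.02 nt in the dry period and 22.93 nt in peak lactation. The share at 24 nt rose only from 35.8%, while reads shorter than listed, with no other base, went from 23.1% to 26.9%. The share of miR-30c reads at 23 nt went from 19.7% [17.4, 22.2] to 12.2% [9.82, 15.1].

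**Figure D3:**
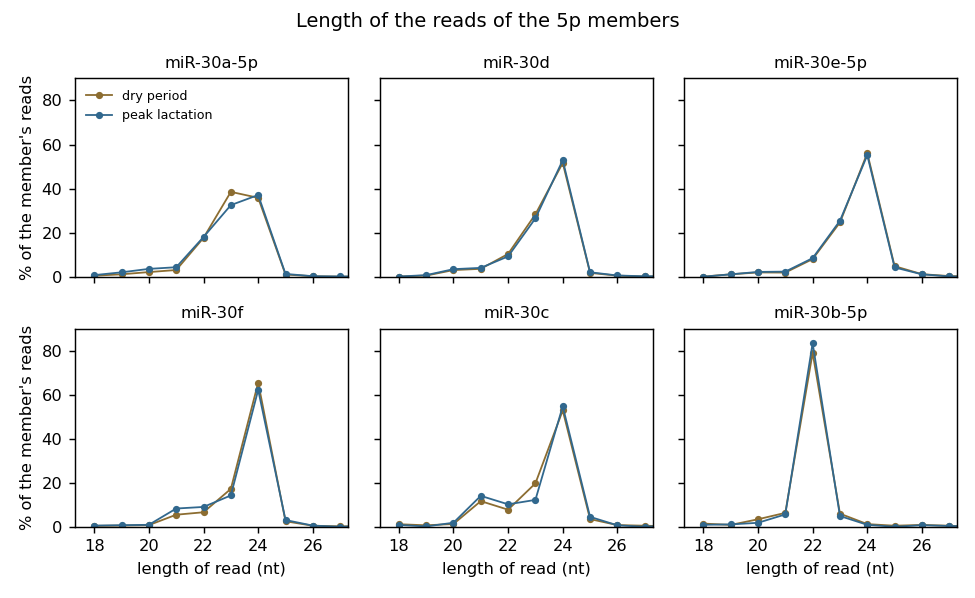
Length of the reads (horizontal axis, nt) of each 5p member as a percentage of that member's reads (vertical axis), in the dry period and in peak lactation. The share at 23 nt was 38.5% in the dry period and 32.5% in peak lactation for miR-30a-5p, and 19.7% and 12.2% for miR-30c.

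The leading tags of miR-30a-5p show the difference as letters. They are given as sequenced, with T for U, and capitals mark the base by which the longer tag exceeds the listed sequence.
listed end: tgtaaacatcctcgactggaagc
longer end: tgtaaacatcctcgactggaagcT
The listed end and the longer end had 18162 and 18137 reads in the dry period, a ratio of longer to listed of 0.999. At peak lactation they had 8163 and 11358 reads, a ratio of 1.39, so the log2 ratio was higher by 0.48 [0.43, 0.53]. All 6 5p members can end in GC or GCU, so the same ratio was taken for each. It was higher in peak lactation for miR-30c, by 0.72 [0.24, 1.21], from 3.25 to 5.35, and for miR-30d, by 0.27 [0.17, 0.37], from 2.69 to 3.23. For miR-30f the change was 0.26 [-0.17, 0.69], for miR-30b-5p 0.18 [-0.49, 0.85] and for miR-30e-5p -0.03 [-0.40, 0.34], intervals that hold 0. In both libraries miR-30a-5p had the lowest ratio of GCU to GC ends of the 6, and miR-30b-5p, at 12.8 and 14.5, the highest.

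A frequent variant end carried a single A where the last or second last base of the GCU end would stand. The main tags of this kind for miR-30a-5p are shown with the A in capitals.
A after G: tgtaaacatcctcgactggaagA
A after GC: tgtaaacatcctcgactggaagcA
The first had 4867 reads in the dry period and 3267 in peak lactation, and the second 2848 and 1443. Together these ends made up 12.7% [12.5, 13.0] and 13.2% [12.8, 13.5] of miR-30a-5p reads. The shares for miR-30d were 13.0% [12.5, 13.5] and 13.5% [12.8, 14.1], and those for miR-30e-5p were 12.9% [11.3, 14.6] and 12.8% [10.6, 15.4]. The members that share the 3′ part cuggaagcu thus had overlapping intervals in each library, over a range of levels from 46.8 to 4082 RPM.

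The members with the other 3′ part carried this A less often. miR-30c had it in 6.12% [4.81, 7.75] and 4.68% [3.26, 6.68] of reads, miR-30f in 4.16% [3.25, 5.32] and 2.70% [1.64, 4.41], and miR-30b-5p in 0.608% [0.260, 1.42] and 0.906% [0.388, 2.10]. The intervals of the subgroups, for both ends together, did not overlap in either library. For A after GC alone, miR-30f, at 3.19% in the dry period, stood above miR-30d, at 2.93%. Measured against the listed ends, a single A in place of the next listed base had a median of 1.41% of reads in the dry period over the 137 miRNAs outside the family with at least 100 reads in each library, with an upper quartile of 3.88%. On that same measure the 6 5p members had a median of 7.71%, and miR-30a-5p was at 9.01%. A single U in that place was rare for miR-30a-5p, at 0.226% in the dry period and 0.308% in peak lactation, and C or G rarer still, at 0.036% and 0.056%.

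**Figure D4:**
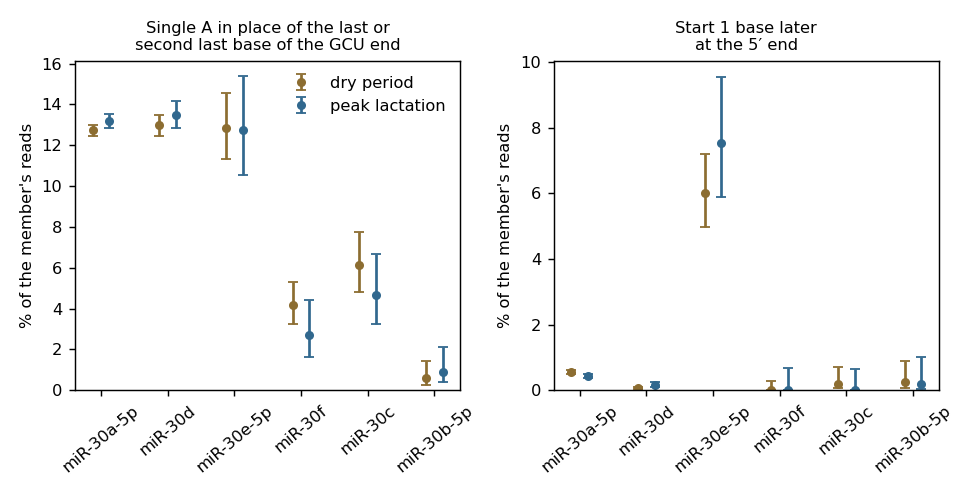
Share of each 5p member's reads (vertical axes, %) that carried a single A in place of the last or second last base of the GCU end (left) and that started 1 base later than listed (right), with 95% Wilson intervals, in the dry period and in peak lactation. On the left miR-30a-5p, miR-30d and miR-30e-5p lie between 12.7% and 13.5%, above the other members, and on the right miR-30e-5p stands alone at 6.0% and 7.52%.

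The 5′ end sets the seed and was nearly fixed. Reads that started 1 or 2 bases before or after the listed start made up 0.768% [0.711, 0.830] of family reads in the dry period and 0.616% [0.551, 0.689] in peak lactation. miR-30e-5p differed from its relatives here. Its reads started 1 base later in 6.0% [4.99, 7.21] of cases in the dry period (106 of 1766 reads) and in 7.52% [5.89, 9.56] in peak lactation (60 of 798). miR-30a-5p had such a start in 0.563% [0.507, 0.626] and 0.428% [0.366, 0.501] of reads, and miR-30d in 0.055% [0.029, 0.105] and 0.150% [0.092, 0.243]. For miR-30f there were 0 reads of 1443 and 0 of 555 with this start. The main tag of this kind for miR-30e-5p, with bases 2 to 8 in capitals, had 62 reads in the dry period and 33 in peak lactation.
start 1 base later: gTAAACATccttgactggaagct
These bases read UAAACAU in RNA letters, in place of GUAAACA. For miR-30b-3p a later start was seen in 20 of 177 reads (11.3%) in the dry period and in 3 of 39 reads in peak lactation.

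Since members differ by a single base, the reads of rare members were set beside those of unlisted tags at the same distance from miR-30a-5p over its first 18 bases. The 52 unlisted substitutions had a median of 17 reads in the dry period and 10 in peak lactation. The highest of them, A6C, had 637 and 350 reads, or 1.05% and 0.979% of miR-30a-5p. miR-30d, which is the U12C neighbour, stood at 26.9% and 29.8% of miR-30a-5p, and miR-30e-5p, the C13U neighbour, at 2.72% and 2.06%. Both listed members thus lay above every unlisted neighbour in both libraries. miR-30f, the U9C neighbour of miR-30b-5p and miR-30c, had 78.4% and 48.5% of the reads of those members together.

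**Figure D5:**
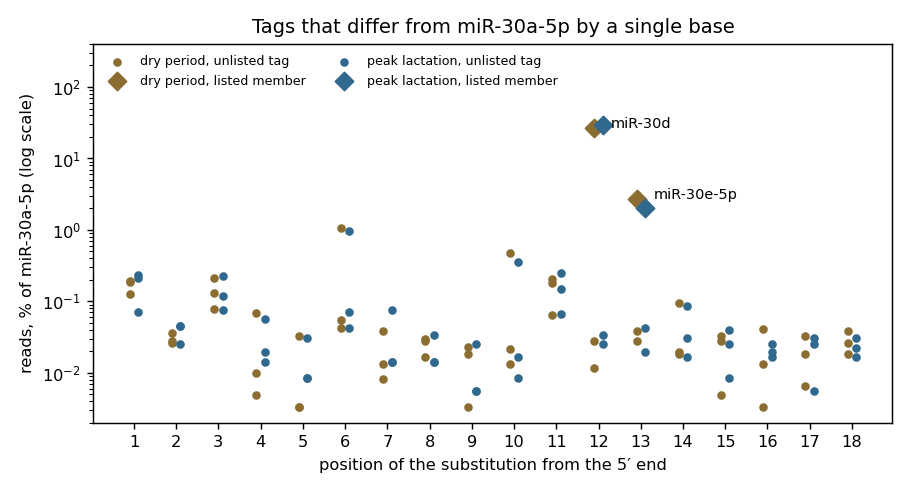
Reads of tags that differ from miR-30a-5p by a single base within its first 18 bases, as a percentage of miR-30a-5p reads (vertical axis, log scale), by position of the change from the 5′ end (horizontal axis), in both libraries. Diamonds are the listed members miR-30d (26.9% and 29.8%) and miR-30e-5p (2.72% and 2.06%), which lie above all unlisted tags (circles). Tags with 0 reads cannot be drawn on the log axis.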

How the data were processed

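The deposited tables hold, for each library, every distinct clean read sequence with its count. The authors sequenced small RNA on an Illumina instrument, removed low-quality reads, adaptor contaminants and reads under 18 nt, collapsed identical reads and deposited these raw counts without normalization or alignment. The submitters' processing notes name CASAVA, with the version not given.

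Each tag went to the listed conserved miRNA that it matched without mismatch over the most bases from its first base on (minimum 18 nt), whatever its 3′ end. Ties counted for each miRNA, and family sums counted each tag once. Counts were divided by clean reads and multiplied by 1000000, after the study's methods. The log2 fold change has an exact Clopper-Pearson interval of the split of reads, shares have Wilson intervals, and differences of log2 fold changes have Woolf intervals. With 1 library per stage no p-value was computed. A miRNA was taken as past the fold above 1 log2 unit, among miRNAs with at least 1 RPM in either library.

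Members follow the naming rule. Other named miRNAs were let-7 with miR-98, 3 comparison families, marker lists as sums, and the 3 miRNAs with at least 100 reads in both libraries nearest to the family sum. The members and lists were chosen with earlier results of these data known. Only sequences, not values, were taken from the study's list. Genes were placed beside each other by RefSeq, without coordinates. Counting was tested on simulated data, made of whole listed sequences with or without an added A, and random tags. Shortened ends, ties and read errors were not simulated. Alternatives used other denominators, TMM factors (edgeR 4.0.16), size factors (DESeq2 1.42.0, R 4.3.3) and other counting rules. The scripts ran on Python 3.11.15 with pandas 2.3.3, numpy 2.4.6, matplotlib 3.10.9 and scipy 1.17.1. The mapping to a genome was not used here.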

Additional observations from a re-analysis of the deposited data

Results flagged for a closer look

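Tags outside the list of conserved miRNAs held the reverse complement of bases 4 to 11 of the 5p members (GGATGTTT, present as the complement in 5 of the 6), and were looked for after the data had been seen. They belong to no comparison above. They came to 4711 reads in the dry period and 2292 in peak lactation. Most reads fell into a larger and a smaller group by their leading tag, shown as sequenced with the complement in capitals, and 594 and 329 reads lay in neither.
larger group: ctttcagtcGGATGTTTgcag
smaller group: ctttcagtcGGATGTTTacagca
The larger group had 3603 reads in the dry period and 1705 in peak lactation, far above the 3 reads taken as detectable, or 243 and 109 RPM. Its log2 fold change was -1.16 [-1.24, -1.08]. The smaller group had 514 and 258 reads, or 34.6 and 16.4 RPM, a log2 fold change of -1.08 [-1.30, -0.86]. Reads of the larger group started 1 base later than its leading tag in 29% [27.5, 30.5] and 25.6% [23.6, 27.8] of cases. No reference of mature or hairpin sequences was used here, so the tags were given no name. In the dry period the larger group alone was more abundant than any member but miR-30a-5p and miR-30d.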

How the results depend on the processing

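No paired analysis was possible because there was 1 library per stage, and no replicate could be left out. The denominator set the direction of the family log2 fold change. It was -0.83 per clean read and -0.33 per clean read of 20 to 24 nt, but 1.26 per conserved miRNA read, 0.30 without let-7 and miR-98, 0.47 with TMM factors and 0.57 with DESeq2 size factors. The members lower by more than 1 log2 unit numbered 3 per clean read, 1 per clean read of 20 to 24 nt and without let-7 and miR-98, and 0 per conserved miRNA read, with TMM and with DESeq2. It was 4 with whole listed sequences only, since miR-30a-5p went to -1.24. The share of the 257 miRNAs lower by more than 1 log2 unit was taken only in the main count, at 70.4%. The member counts of the alternatives thus have no background and show nothing particular to the family. miR-30e-5p turned to 0.84 per conserved miRNA read, 0.054 with TMM and 0.15 with DESeq2, and miR-30f to 0.63 per conserved miRNA read. Where only the denominator changed, the median of the 257 miRNAs moved by the same amount. It was -1.44 per clean read, -0.94 per clean read of 20 to 24 nt and -0.31 without let-7 and miR-98. With TMM it was -0.14, with DESeq2 -0.043 and per conserved miRNA read 0.64.

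Counting rules kept the direction per clean read in 49 of 49 member values. Most of these rules recount largely the same reads, so the values are not independent. In the main count only 10 of the 257 miRNAs (3.89%) stood above 0. Whole listed sequences only gave a family log2 fold change of -1.04, a family share of 0.471% and 1.02% of conserved miRNA reads, and a miR-30a-5p share of 63.1% and 55.1% of family reads (dry period, then peak lactation), since its listed sequence lacks the final U of its longer end. The family share was 0.887% and 2.09% with shifted starts, 0.919% and 2.26% with ties left out, and 0.912% in the dry period with 1 mismatch. The mean read length of 23.1 and 23.0 nt became 23.9 and 24.5 nt over unique tags, and 23.14 and 23.12 nt from a 20 nt minimum. The shifted-start share became 0.695% and 0.536% with tags of at least 2 reads, and 18.98% and 13.8% over unique tags. Depth limits miR-30b-3p most, with 36 reads at peak lactation.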

Other observations

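The substitution A6C, an A-to-C change within the seed, was the most frequent unlisted single-base neighbour of miR-30a-5p, miR-30d and miR-30f, and of miR-30b-5p and miR-30c as a pair, in the dry period. It stood at 1.05% of miR-30a-5p, 0.747% of miR-30d, 1.11% of miR-30f and 1.25% of the reads of miR-30b-5p and miR-30c. In peak lactation the shares were 0.979%, 0.516%, 1.08% and 0.524% in the same order, and C10U was then ahead of A6C for miR-30f and C18U for miR-30b-5p and miR-30c, by 7 reads against 6 in each case. For miR-30e-5p, A6C was not the most frequent in either library. The 52 unlisted neighbours of miR-30a-5p together came to 3.92% of its reads in the dry period and 3.85% in peak lactation. The cause of these tags was not tested.

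Among the relatives of miR-148, miR-148a was at a log2 fold change of 0.54 per clean read [0.52, 0.57], while miR-148b and miR-152 were at -0.90 [-0.99, -0.80] and -0.92 [-0.94, -0.89]. No miR-30 member was above 0 on that scale, where only 10 of the 257 miRNAs (3.89%) were, so this is no trait of the family.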
